A study of Aspergillus niger with 6 samples.

Results

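The genes described here encode the mitochondrial respiratory chain, the ATP synthase and the proton pumps that KEGG places on the same map, in the filamentous fungus Aspergillus niger. They are the 71 of 11910 genes whose KEGG annotation in the deposited table names the pathway Oxidative phosphorylation. Product names in that annotation divided them into 21 genes of complex I, 5 of complex II, 7 of complex III, 6 of complex IV, 3 for the assembly of complex IV, 9 of the ATP synthase (complex V), 13 of the vacuolar ATPase, 4 of the plasma membrane ATPase type, 1 pyrophosphatase and 2 fumarate reductases. None of the 71 carries the product name of a subunit that mitochondrial DNA usually encodes, so that group is not analysed here.

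RNA of a strain lacking rpnR, labelled delta-rpnR, was compared with RNA of its control strain MA234.1. Both were grown from conidia in shaken liquid culture on 1% glucose for 16 h at 30 °C and then kept for 4 h on 25 mM xylose. The series presents rpnR as the gene of a predicted transcription factor under the control of FlbA, with a part in secretion and stress resistance. The labels number 3 libraries per strain where the design text speaks of duplicates, and they do not say how the strains were made beyond the deletion or whether a strain is 1 clone.

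The deposited table holds 1 value per gene and strain, read as FPKM (fragments scaled to transcript length and to the size of the library), which allows levels to be compared between genes per length. It holds no value per library, so no SD or n can be given for any level below, and the depth of the libraries is unknown. The only measure of error is the q-value that the authors give for delta-rpnR against MA234.1, and a gene is called changed here when that q is under 0.05. FPKM values added up to 828095 for MA234.1 and to 872090 for delta-rpnR. The table gives a symbol to 8 genes, none of them rpnR, so the deletion was not checked against the labels. In RNA of whole cultures, fewer cells of a kind and less RNA per cell cannot be told apart.

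In respiration, complex I passes electrons from NADH, and complex II from succinate, to ubiquinone. Complex III hands them on to cytochrome c and complex IV to oxygen. Complexes I, III and IV pump protons out of the mitochondrial matrix, and the ATP synthase lets them return and makes ATP. The vacuolar ATPase runs the other way, spending ATP to acidify vacuoles, and the plasma membrane ATPase exports protons to drive the uptake of nutrients. Aspergillus also has an alternative oxidase, which takes electrons from ubiquinol straight to oxygen without pumping protons.

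No tested gene of the respiratory chain, the ATP synthase or the proton pumps was called changed. Of the 71 genes, 67 were tested by the authors, and 0 of these 67 passed a q of 0.05 by the authors' deposited table, beside 6.54% of all 9234 tested genes. With the lowest q of the 67 at 0.243, the counts were necessarily 0 too at a q under 0.1 (9.41% of all tested genes) and under 0.01 (2.59%). The authors' own flag of q, fold and level (5.46%) requires a q of at most 0.05, so its count was 0 as well. With an upper bound of the unadjusted p-value computed from the authors' deposited q, 2 of 67 came under 0.05, both higher in the deletion strain, against 18.1% of all tested genes. The lowest q among the 67 was 0.243 in the authors' deposited table, that of the succinate dehydrogenase anchor subunit SDHD.

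The values nonetheless lay mostly above the control. Of the 67 tested genes 52 were higher in the deletion strain and 15 lower, or 77.6% higher, against 51.3% of all tested genes. Their median log2 ratio, deletion over control on the log2(FPKM + 1) scale, was 0.18, or 1.13-fold, against 0.02 over all tested genes. Genes with a mean of at least 100 FPKM that are not on the list, a comparison added after the values were seen, had 56.7% of 1253 values above the control and a median of 0.08. Log2 ratios of 33 of the 67 lay between -0.2 and 0.2. Only 7 of 67 differed by 1.5-fold or more, all of them higher in the deletion strain (4 of complex II, 1 of the vacuolar ATPase and both fumarate reductases), while 17.8% of all tested genes were higher by that much. No tested gene of the list differed by 2-fold. Shares of all tested genes between -0.2 and 0.2, lower by 1.5-fold or past 2-fold were not computed. Those counts are therefore given without a background.

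Succinate dehydrogenase (complex II), which also works in the citrate cycle, stood highest of the 5 complexes by median log2 ratio, and its 4 tested subunits had similar ratios, none of them called. The flavoprotein SDHA (1136064), which oxidises succinate, was at 738 FPKM in MA234.1, given first here and below, and at 1245 FPKM in delta-rpnR. The iron-sulfur subunit SDHB (1202533), which carries the electrons on, was at 645 and 1026 FPKM. Both soluble subunits were therefore higher in the deletion strain by 1.69-fold and 1.59-fold. The anchors that hold the enzyme in the inner membrane and bind ubiquinone were SDHC (1143907), at 863 and 1322 FPKM, and SDHD (1142789), at 790 and 1478 FPKM. Anchor levels were 1.53-fold and 1.87-fold those of the control, so the 4 ratios spanned 0.61 to 0.90 on the log2 scale with a median of 0.71. The q-values of the 4 in the authors' deposited table ran from 0.243 to 0.529. The 4 genes took 0.367% of all FPKM in MA234.1 and 0.582% in delta-rpnR.

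The authors' test called no gene with a difference of that size at that level. Among 309 tested genes with a mean of 400 to 1500 FPKM, the smallest rise called from the authors' deposited table was a log2 ratio of 1.67 and the smallest fall was -1.46. Of these 309 genes 61 were called, 54 of them lower. In the same range of levels 39 genes, 4 of them the subunits of succinate dehydrogenase, had log2 ratios from 0.6 to 1.0. None of these 39 was called, and their lowest q was 0.129 in the authors' deposited table. Whether complex II differed from the other complexes in its response was not tested, since no values per library are at hand.

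**Figure D1:**
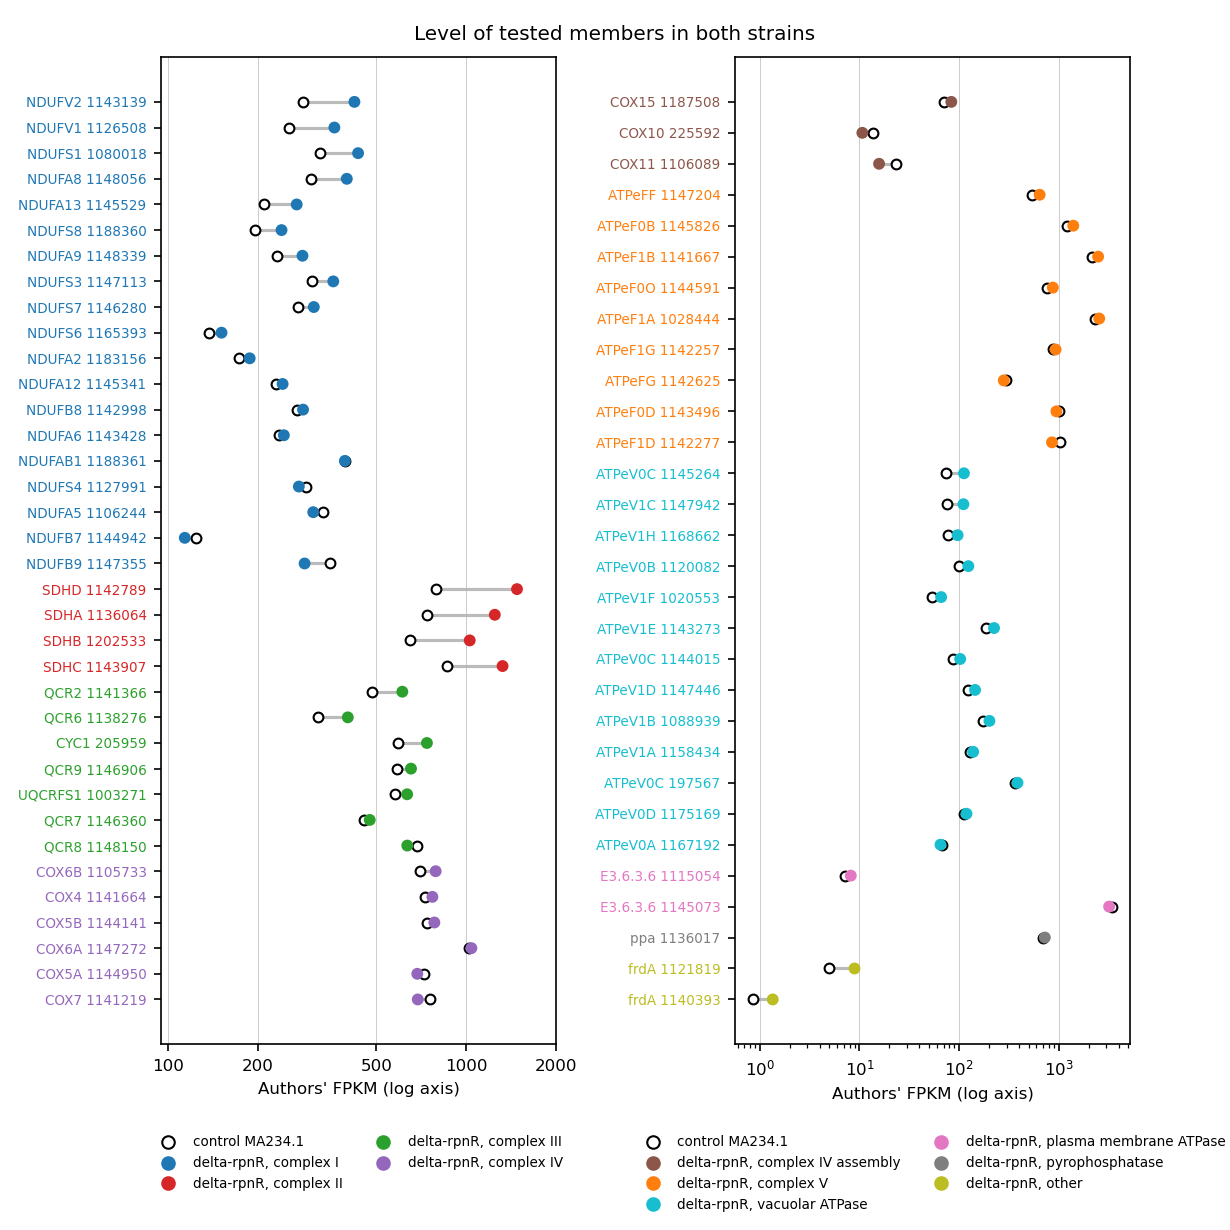
FPKM of 66 tested genes in the control (open circles) and the deletion strain (filled circles, coloured by class), on log axes, 1 row per gene with the symbol from its KEGG annotation and its protein number. The 4 succinate dehydrogenase genes lie at 645 to 863 FPKM in the control and at 1026 to 1478 FPKM with rpnR deleted, while the 6 complex IV subunits lie close to their control values.

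Complex I, the largest enzyme of the chain, lay slightly above the control. Of its 20 tested genes 15 were higher and 5 lower, with a median log2 ratio of 0.16 and a range of -0.28 to 0.57, and q-values from 0.519 to 0.998 in the authors' deposited table. Its levels ran from 124 to 392 FPKM in MA234.1 and from 114 to 434 FPKM in delta-rpnR, below those of the 4 tested complex II genes in each strain.

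The subunits of complex I were then grouped by role, after their values had been seen. The 3 core subunits that take up electrons from NADH were the 3 highest by log2 ratio. NDUFV1 (1126508), which binds NADH and the flavin, was at 255 and 361 FPKM. NDUFV2 (1143139), an iron-sulfur protein beside it, was at 285 and 422 FPKM. NDUFS1 (1080018), which carries further iron-sulfur clusters, was at 323 and 434 FPKM. Each of these was 1.34-fold to 1.48-fold the control, and none was called. Of the core subunits that lead electrons on to ubiquinone, NDUFS3, NDUFS7 and NDUFS8 were also above the control, with log2 ratios from 0.18 to 0.29. These 6 core subunits thus all lay above the control.

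The 13 accessory subunits of complex I, which surround the core and carry no redox centre, were divided. Among them 8 lay above and 5 below the control, with a median log2 ratio of 0.06. NDUFA8 (1148056) had the highest ratio, at 303 and 398 FPKM. NDUFA13 (1145529) followed at 211 and 270 FPKM. The lowest was NDUFB9 (1147355), at 348 and 287 FPKM. Its q of 0.979 in the authors' deposited table exceeded the 0.830 of NDUFS8 (1188360), whose log2 ratio of 0.29 was of similar size to the -0.28 of NDUFB9. The acyl carrier protein NDUFAB1 (1188361), which also serves fatty acid synthesis in mitochondria, was the most abundant accessory subunit in the control and had nearly equal values, 392.3 and 391.8 FPKM. A second gene with the product name of NDUFS7 (1095874) was listed at 0 in both strains and was not tested.

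**Figure D2:**
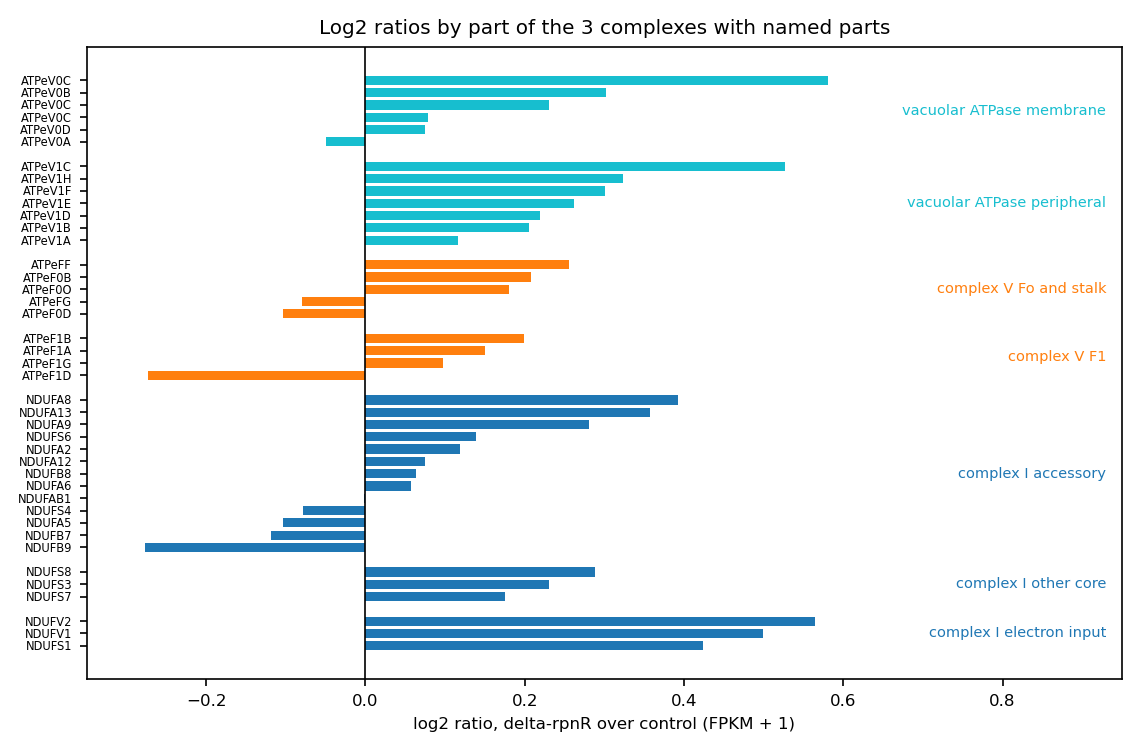
Log2 ratio of deletion strain over control, on the FPKM + 1 scale, for tested subunits of complex I, the ATP synthase (complex V) and the vacuolar ATPase, grouped by part. The 3 electron input subunits of complex I reach 0.42 to 0.57, its 13 accessory subunits lie on both sides of 0, and the 7 peripheral subunits of the vacuolar ATPase all lie above 0.

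Complex III, the cytochrome bc1 complex, had 6 of 7 genes above the control and none called, with a median log2 ratio of 0.16 and a range of -0.10 to 0.34. The catalytic subunits were cytochrome c1 (CYC1, 205959), which reduces cytochrome c, at 592 and 738 FPKM, and the Rieske iron-sulfur protein (UQCRFS1, 1003271), at 579 and 633 FPKM. The core subunit QCR2 (1141366) was at 483 and 610 FPKM. The hinge protein QCR6 (1138276), the least abundant of the 7, was at 317 and 401 FPKM. The q-values of the 7 in the authors' deposited table were 0.748 or more. QCR8 (1148150), a small subunit of the membrane part, was the only 1 below the control, at 682 and 634 FPKM. QCR9 (1146906, at 585 and 653 FPKM) and QCR7 (1146360, at 453 and 475 FPKM) lay between.

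Complex IV, cytochrome c oxidase, lay closest to the control of the 5 complexes by median log2 ratio. Its 6 nuclear subunits had a median log2 ratio of 0.05 and a range of -0.14 to 0.17, with 4 above and 2 below the control, and no q under 0.928 in the authors' deposited table. With each strain scaled to the same sum, this median became -0.03. The most abundant was COX6A (1147272), at 1025 and 1039.6 FPKM. The largest differences were those of COX6B (1105733), at 701 and 789 FPKM, and COX7 (1141219), at 757 and 687 FPKM. COX4, COX5A and COX5B were at 719 to 740.3 FPKM in MA234.1 and 685 to 781 FPKM in delta-rpnR. Levels within this complex stayed close together, the highest being 1.46 times the lowest in MA234.1 and 1.52 times in delta-rpnR. In the control the medians of complex II (764 FPKM) and complex IV (733 FPKM) were near each other, and in the deletion strain they were 1284 and 776 FPKM.

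Assembly factors of complex IV were expressed far below its subunits. COX10 (225592), which makes haem o, was at 13.6 and 10.7 FPKM. COX15 (1187508), which turns haem o into the haem a of the oxidase, was at 70.0 and 83.7 FPKM. COX11 (1106089), which delivers copper to the oxidase, was at 23.3 and 15.7 FPKM. The factor for copper and the first haem enzyme were thus below the control and the second haem enzyme above it. COX11 had the lowest log2 ratio of all 67 tested genes, -0.54, with a q of 0.552 in the authors' deposited table.

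The ATP synthase was the most abundant of the 5 complexes, with 1.24% of all FPKM in MA234.1 and 1.26% in delta-rpnR. Of its 9 genes 6 lay above and 3 below the control, with a median log2 ratio of 0.15 and a range of -0.27 to 0.26, and q-values of 0.848 or more in the authors' deposited table. The catalytic head is built of the alpha subunit (1028444), at 2308 and 2560.1 FPKM, and the beta subunit (1141667), at 2174 and 2495 FPKM. Both were slightly above the control, by 1.11-fold and 1.15-fold. The gamma subunit (1142257), the shaft that turns inside the head, was at 872 and 933 FPKM. The delta subunit (1142277), at the foot of that shaft, was at 1037 and 858 FPKM. These rotor subunits lay on opposite sides of the control, and delta was the lowest of the 9 by log2 ratio. In the stalk that holds the head still, subunit b (1145826) was at 1217 and 1406 FPKM, subunit O (1144591) at 773 and 876 FPKM, and subunit d (1143496) at 1022 and 951 FPKM. The small membrane subunits f (1147204) and g (1142625) were at 540.1 against 645 FPKM and at 298 against 282 FPKM. Parts of the enzyme did not separate by direction, with 3 of 4 head and shaft subunits and 3 of 5 stalk and membrane subunits above the control.

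**Figure D3:**
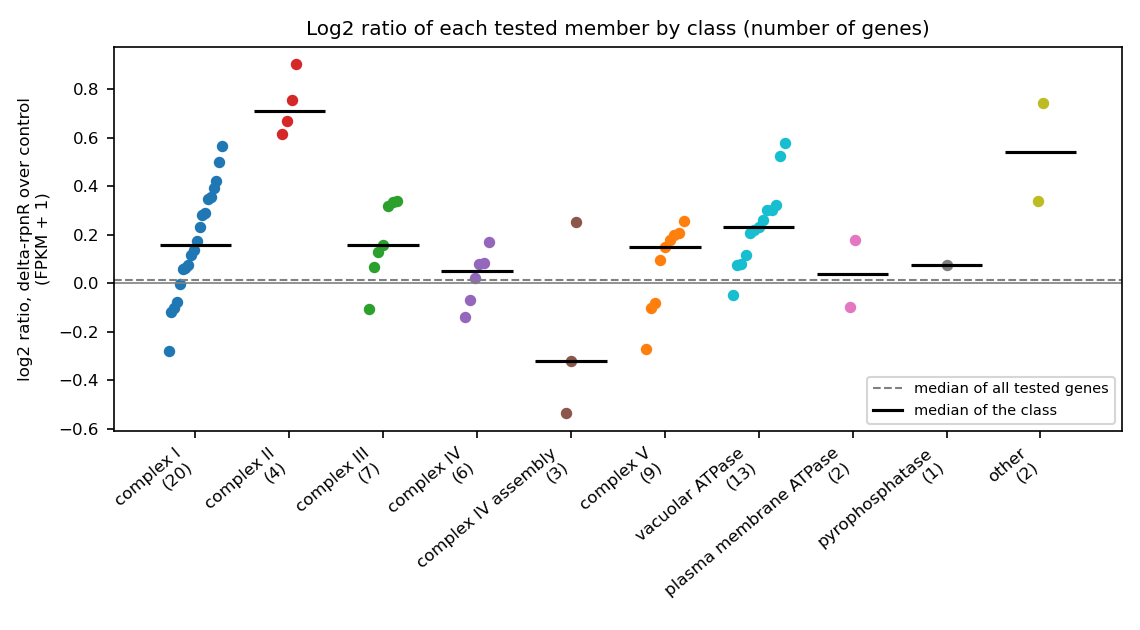
Log2 ratio of deletion strain over control, on the FPKM + 1 scale, for each of the 67 tested genes by class, with the class median (black line), the median of all tested genes (dashed line) and the number of genes in brackets. Complex II has the highest median of the 5 complexes, 0.71, and complex IV the lowest, 0.05.

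The vacuolar ATPase, the proton pump of vacuoles and related compartments, had 12 of 13 genes above the control and none called, with a median log2 ratio of 0.23. Its median level was lower than that of any of the 5 complexes, at 100.4 FPKM in MA234.1 and 119 FPKM in delta-rpnR. All 7 subunits of the peripheral sector, which splits ATP, lay above the control, with log2 ratios from 0.12 to 0.53. Subunit C (1147942), which links this sector to the stator, was at 76.5 and 111 FPKM, the largest ratio of the sector. Subunit H (1168662), a regulator of the pump, was at 77.2 and 96.8 FPKM. The ATP-binding subunit B (1088939) was at 175 and 202 FPKM, and subunit E (1143273), part of the stator, at 187 and 225 FPKM. The gene named for the catalytic subunit A (1158434), at 128 and 139 FPKM, also lists dynamin domains in the table, and whether its gene model joins 2 genes was not tested.

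The membrane sector of the vacuolar ATPase, through which protons pass, had 5 of 6 values above the control. Subunit a (1167192), the lowest, was at 67.4 and 65.1 FPKM. A proteolipid of 21 kDa (1120082), with 5 listed membrane segments, was at 100.4 and 124 FPKM. The 16 kDa proteolipid of the ring that carries the protons is named 3 times, with 4 listed membrane segments each. The most abundant of these (197567) was at 366 and 387 FPKM. The others were 1145264, at 74.6 and 112 FPKM, and 1144015, at 87.4 and 102.8 FPKM. Gene 1145264, with the largest log2 ratio of the pump (0.58), also lies in secondary metabolism cluster 42 of the table. It was the 1 member of any such cluster among the 71 (1.41%), against 5.94% of all genes. Whether reads were shared between these gene copies was not tested. The lowest q of the 13 genes was 0.464 in the authors' deposited table.

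The 4 genes of the plasma membrane ATPase type differed widely in level, and neither of the 2 tested was called. Gene 1145073 was the most abundant of all 71, at 3443 and 3219 FPKM. Gene 1115054 was at 7.12 and 8.18 FPKM. The others, 1156548 and 1186115, stayed under 1 FPKM in both strains and were not tested. One gene thus carried nearly all of this class in each strain, and its log2 ratio was -0.10 with a q of 0.979 in the authors' deposited table. The inorganic pyrophosphatase (1136017), which splits the pyrophosphate released in biosynthesis, was at 691 and 728 FPKM.

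A pair of genes carries the product name of fumarate reductase, which runs the reaction of succinate dehydrogenase in reverse. Gene 1121819 was at 4.92 and 8.92 FPKM and gene 1140393 at 0.852 and 1.34 FPKM. Both lay above the control at levels far under those of complex II. The first was 1 of the 2 genes with a bound on the unadjusted p under 0.05, at 0.0409 (SDHD was the other, at 0.0402), with a q of 0.245 in the authors' deposited table. A further gene with the SDHA product name (1214835) was at 0.171 and 0.554 FPKM and was not tested.

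**Figure D4:**
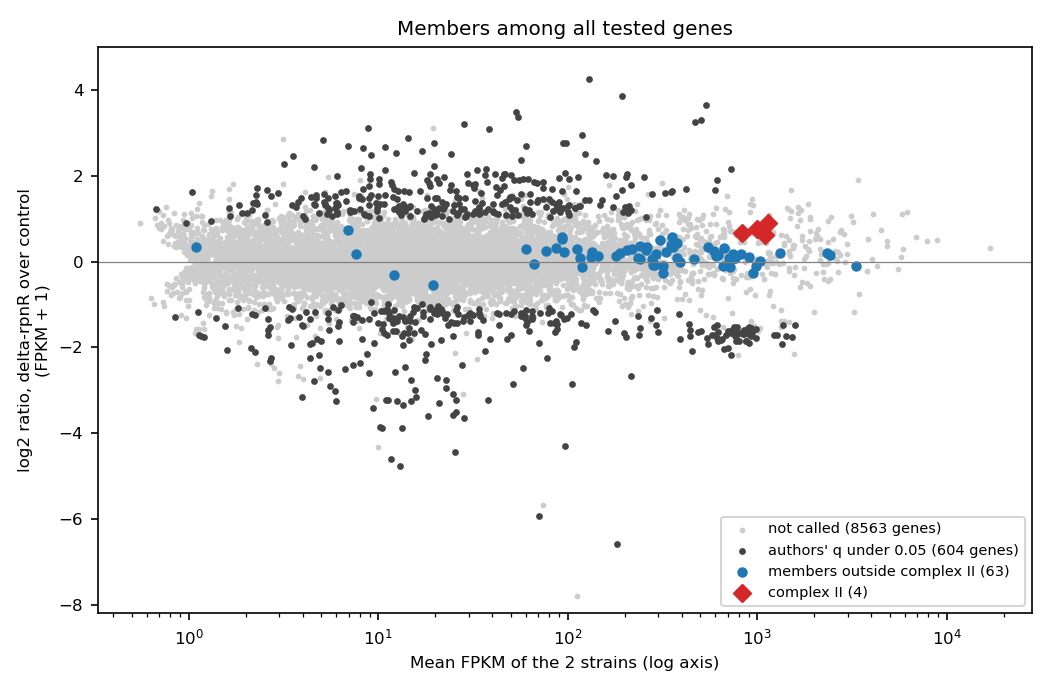
Log2 ratio of deletion strain over control against the mean FPKM of both strains (log axis) for all 9234 tested genes, with those called by the authors' q in dark grey. The 67 genes of the list (blue, complex II in red) lie inside the band of genes that were not called, and the 4 complex II genes lie at its upper side.

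Genes around the chain that are not on the list were described in the same way, and their calls are to be read against the 6.54% of all tested genes. The mobile carrier cytochrome c (1144442), named outside the rule for named genes, was at 1376 and 1568 FPKM. An alternative oxidase (1035868) was at 1179 and 1071 FPKM, and a second gene with the same domain (1154559) was at 0.564 and 0.158 FPKM and was not tested. Neither cytochrome c nor the alternative oxidase was thus called. The text search for the alternative oxidase also matched a polyamine oxidase (1158323, at 66.9 and 118 FPKM), which is not a respiratory enzyme.

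The citrate cycle supplies NADH and succinate to the chain. Its KEGG map also holds pyruvate dehydrogenase, ATP citrate lyase, pyruvate carboxylase and phosphoenolpyruvate carboxykinase. On that map 17 of 28 tested genes lay above the control and 1 was called. Its median log2 ratio was 0.15 without succinate dehydrogenase. The called gene was a citrate synthase (1143506), which rose from 66.2 to 163 FPKM with a q of 0.0202 in the authors' deposited table. A more abundant citrate synthase (1141371), at 1063 and 1216 FPKM, was not called. The less abundant citrate synthase 1117524 lay below the control, at 2.38 and 1.26 FPKM. Citrate synthase 1114423 lay above it, at 0.565 and 1.22 FPKM, and neither was called. The enzymes that follow succinate dehydrogenase were described after their values were seen, and none was called. Fumarase (1133528) was at 412 and 589 FPKM. The malate dehydrogenases 1143842 and 1143375 were at 2064 against 2974 FPKM and at 1173 against 2068 FPKM. The 3 genes were higher in the deletion strain by log2 ratios of 0.52, 0.53 and 0.82. Phosphoenolpyruvate carboxykinase (1146974), on the same map, had a higher log2 ratio of 1.02 and was not called. Pyruvate carboxylase 1119886, at 2.83 and 6.43 FPKM, had 0.96, and the more abundant 1031996 had 0.50, neither called. The enzymes before succinate lay on both sides of the control. Both tested NAD-dependent isocitrate dehydrogenase genes lay below it, 1148099 at 282 against 185 FPKM and 1147749 at 456 against 328 FPKM. A further isocitrate dehydrogenase, named IDH1 (1175390), lay above it, at 860.5 and 1168 FPKM. The oxoglutarate dehydrogenase components OGDH (1146578), DLST (1037649) and DLD (1144109) had log2 ratios of 0.27, 0.08 and 0.23. The more abundant succinyl-CoA synthetase genes, 1145379 and 1141436, had log2 ratios of -0.11 and 0.01. Aconitases 1180758 and 1148327 had log2 ratios of -0.30 and -0.27, while 1218684, at 0.905 and 1.75 FPKM, had 0.53. For pyruvate dehydrogenase, PDHB (1005336), PDHA (1019169) and DLAT (1143848) had log2 ratios of -0.41, -0.20 and -0.19. The less abundant PDHA gene 1111858 had 0.11.

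Other lists linked to the chain did not share a direction. In the pathway of ubiquinone and related quinones 9 of 18 tested genes lay above the control, with a median log2 ratio of 0.01. Its 1 call was 4-hydroxyphenylpyruvate dioxygenase (1125908), an enzyme of tyrosine breakdown, which rose from 2.91 to 8.06 FPKM with a q of 0.0461 in the authors' deposited table. At a q under 0.1 this pathway had 4 of 18 genes, beside 9.41% of all tested genes. In the haem pathway, which supplies the cytochromes, 6 of 19 lay above the control, with a median of -0.09 and none called. Its most abundant genes were a reductase named after protochlorophyllide (1183270), at 243 and 215 FPKM, and coproporphyrinogen oxidase (1135072), at 192 and 241 FPKM. Of 36 mitochondrial carriers 15 lay above the control, with a median of -0.07 and none called. The ADP/ATP carrier (1147568), which exports the ATP made by the synthase, was at 4455 and 4137 FPKM, and carrier 1142773 at 1732 and 1892 FPKM. The search for import into mitochondria found only the outer membrane channel TOM40 (1143388), at 104 and 88.9 FPKM.

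In annotations that the choice of genes did not use, 19 of the 71 genes (26.8%) list a transmembrane domain, against 21.5% of all genes. A predicted secretion signal was listed for 0 of 71, against 8.69% of all genes.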

How the data were processed

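Per the labels, mycelium RNA of 6 libraries was sequenced, 3 of each strain. Cuffdiff 2.2.1, Cufflinks, TopHat2, Trimmomatic and CASAVA 1.8.3 were used per the submitters' processing notes, which give no roles. The genome build is not given in the sources used here. Values as deposited, 1 per gene and strain, are read as the authors' FPKM because Cuffdiff reports that unit. The authors' deposited q-value was used as given. Genes with a q of 1 (2676, none above 7.50 FPKM) were taken as not tested. Python 3.11.15 and pandas 2.3.3 computed log2 ratios with a pseudocount of 1, which understates changes of low genes. The bound on the unadjusted p multiplies q by its rank (the highest where tied) and divides by 9234, checked on simulated p-values.

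Product names set the classes. Parts of the complexes were set after the values were seen, and the genes and lists were chosen with earlier results of these data known. Named were called genes, the 3 largest absolute log2 ratios and the 2 highest means per class, genes that share a product name and, in each related list, called genes or the 2 highest means. Further genes are named to complete a complex, and 1 gene of complex I, included in the counts, is not reported here by itself. No sequence is shown, since protein numbers were not paired with a reference.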

Additional observations from a re-analysis of the deposited data

How the results depend on the processing

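The count of called genes was 0 at a q under 0.01 or 0.1, by the authors' flag, and for genes with a mean of at least 5 FPKM. These counts follow from the lowest q of 0.243 in the authors' deposited table and are no separate checks. Across the 7 other settings (pseudocounts of 0.1 and 5, untested genes included, a mean of at least 5 FPKM, equal sums, centring on all tested genes, and 1 value per product) 47 to 55 genes lay above the control and the median log2 ratio was 0.10 to 0.18. A pseudocount cannot alter the number of genes above the control, so for it only the medians are informative. With equal sums, 47 of 67 lay above, complex II had a median of 0.64, and the medians of complex IV, the plasma membrane ATPases and the pyrophosphatase turned to -0.025, -0.031 and -0.00063, with 0 of 1 pyrophosphatase genes above. Equal sums also lowered the medians of complexes I, III and V from 0.157, 0.157 and 0.150 to 0.083, 0.082 and 0.075. Of the complex I genes 13 of 20 then lay above. With untested genes 3 of 4 plasma membrane ATPase genes lay above. The fumarate reductases, both above as reported, gave 1 of 1 above with a mean of at least 5 FPKM or 1 value per product, and a median of 0.72, 0.30 and 0.74 with pseudocounts of 0.1 and 5 and that minimum. At a q under 0.1 the citrate cycle map had 2 of 28 genes called and the quinone pathway 4 of 18. The haem pathway had 1 of 19 and the carriers 1 of 36, all to be read against 9.41% of all tested genes. The quinone median was -0.0054 after centring. In all, 15 of 170 recomputed values moved by over 1.5 times (counts), by over 0.1 or in sign (medians). Part of the 170 could not move. Among these were counts above the control at other pseudocounts, called counts of the list, and classes whose genes a setting left unaltered. The share that moved is therefore no measure of stability. No paired analysis was possible because the table holds 1 value per strain, and for the same reason no library was left out in turn. Depth is unknown, so its limit on low genes could not be given.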
